A study of Homo sapiens with 12 samples.

Results

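The core pluripotency genes described here are 10 genes that mark or maintain human pluripotent stem cells: POU5F1, NANOG, SOX2, PRDM14, ZFP42, DPPA2, DPPA4, L1TD1, SALL4 and KLF4. They were taken by symbol from a table of 56593 distinct gene symbols, and each of the 10 stood on a single line. Their levels were followed through 12 RNA-seq libraries of H1, an established human embryonic stem cell line, as it was differentiated toward blood. The 4 populations had 3 libraries each: undifferentiated H1 cells, APLNR+ mesoderm cells sorted on day 2 after activin A and BMP4, and CD31+CD34+ hemogenic endothelial progenitors (HEPs) of day 5 and CD43+ hematopoietic progenitor cells (HPCs) of day 8, both sorted after a further culture with VEGF and bFGF. All 4 populations came from the same line, none is labelled as genetically changed, and the labels do not say whether the replicates were separate cultures, so the p-values measure the spread between these libraries only. Values are FPKM, fragments scaled to the length of the transcript and the size of the library, so levels can be compared between genes per length, and the depth behind each value is unknown.

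Pluripotency is the capacity of a cell to form all tissues of the body. In human embryonic stem cells it is held by a small circuit of transcription factors in which OCT4 (the product of POU5F1), SOX2 and NANOG bind together at shared enhancers and activate their own genes. Around this circuit stand further regulators such as PRDM14 and SALL4, the chromatin factors DPPA2 and DPPA4, and marker genes such as ZFP42 and L1TD1, and the circuit is dismantled when cells enter a germ layer. OCT4 and NANOG are also known to persist for a time in cells of the primitive streak and mesoderm, whereas SOX2 is kept in cells that go on to neural tissue.

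The libraries carried the genes of their sort, though these genes did not each mark a single population. APLNR also averaged 403 FPKM in CD31+CD34+ cells, and PECAM1 95.9 FPKM in CD43+ cells. APLNR averaged 0.528 in H1 against 383 FPKM in APLNR+ cells, PECAM1 (CD31) and CD34 averaged 55.2 and 47.7 FPKM in CD31+CD34+ cells against 0.0997 and 0.981 FPKM in APLNR+ cells, and SPN (CD43) averaged 75.5 FPKM in CD43+ cells against 3.70 FPKM in CD31+CD34+ cells. Relative depth, estimated from the spacing of the lowest values, ranged from 0.555 to 1.27 of CD43+ replicate 3, and replicate 1 was the shallowest library of every population. Genes of small RNAs, by symbol, took between 10.4% and 73.8% of the summed FPKM.

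Start-site sequence was available from RefSeq (GRCh38.p14, from 250 bases before to 50 bases after the annotated start) for 7 of the 10 genes. The windows of POU5F1, PRDM14 and SALL4 are not shown. Because OCT4 and SOX2 bind as a pair to a composite element, each window was searched on both strands for the SOX hexamer CATTGT, the octamer ATGCAAAT, and a paired element made of CATTGT followed within 3 bases by ATGCNAA; the GC box GGGCGG and the TATA box TATAAA were searched alongside. The window of NANOG is printed because it was the 1 member window that held the paired element. SOX2 and L1TD1 are printed because they fell the furthest at the first and the second step on the log2(FPKM + 1) scale, and KLF4 because it was the 1 member that rose. Capitals mark the paired element in NANOG, which lies on the minus strand of the window from base -120 to base -107, and GC boxes in the other sequences.
NANOG: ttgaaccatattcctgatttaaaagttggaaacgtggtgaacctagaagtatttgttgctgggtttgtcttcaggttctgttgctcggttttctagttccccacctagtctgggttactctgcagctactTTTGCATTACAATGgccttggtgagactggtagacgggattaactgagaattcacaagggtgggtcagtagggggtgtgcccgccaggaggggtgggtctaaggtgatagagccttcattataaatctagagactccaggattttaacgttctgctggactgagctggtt
SOX2: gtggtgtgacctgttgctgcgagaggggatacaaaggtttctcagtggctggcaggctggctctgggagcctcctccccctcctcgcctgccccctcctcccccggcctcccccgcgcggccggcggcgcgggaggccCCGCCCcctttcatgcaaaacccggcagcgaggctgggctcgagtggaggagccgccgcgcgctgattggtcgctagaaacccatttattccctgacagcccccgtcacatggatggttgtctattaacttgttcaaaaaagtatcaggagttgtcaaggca
L1TD1: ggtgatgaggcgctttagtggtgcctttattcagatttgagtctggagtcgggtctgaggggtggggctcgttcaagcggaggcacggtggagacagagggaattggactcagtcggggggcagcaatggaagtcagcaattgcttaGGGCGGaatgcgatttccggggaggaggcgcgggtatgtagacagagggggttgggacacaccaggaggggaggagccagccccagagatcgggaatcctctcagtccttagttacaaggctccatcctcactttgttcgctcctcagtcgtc
KLF4: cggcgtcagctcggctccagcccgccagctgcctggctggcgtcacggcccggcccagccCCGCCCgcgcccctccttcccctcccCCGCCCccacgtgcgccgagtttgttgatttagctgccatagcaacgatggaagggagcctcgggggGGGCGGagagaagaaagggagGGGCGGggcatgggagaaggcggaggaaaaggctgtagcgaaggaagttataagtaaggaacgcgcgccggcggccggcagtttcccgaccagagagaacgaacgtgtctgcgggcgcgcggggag
The NANOG window is chr12:7789152-7789451 (plus strand), that of SOX2 chr3:181711675-181711974 (plus strand), that of L1TD1 chr1:62194599-62194898 (plus strand) and that of KLF4 chr9:107489720-107490019 (minus strand), each written 5′ to 3′ along its gene.

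The paired element was present in 1 of the 7 member windows and in 7 of 35116 promoter windows (0.0199%), which belonged to NANOG, NRARP, SHTN1, FAM227A, DAAM2-AS1, LOC105370047 and LOC124904199. The SOX hexamer, of which the paired element contains a copy, was likewise found in NANOG alone of the 7, against 10.8% of all windows, and the octamer in 0 of the 7, against 1.77%. GC boxes were found in 5 of the 7 windows, with 4 in KLF4, 3 in ZFP42 and 1 each in SOX2, DPPA4 and L1TD1, while 45% of all windows held one. The letters TATAAA were found in NANOG alone (11.5% of all windows), from base -1 to base 4, across the annotated start. These matches describe the letters of the windows and were not linked to the measured levels.

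In undifferentiated H1 cells the 10 genes spanned a wide range of levels. POU5F1 was the most abundant at 1002 ± 31.2 FPKM (SD, n = 3), followed by DPPA4 at 316 ± 9.22, L1TD1 at 155 ± 4.97 and ZFP42 at 122 ± 8.59 FPKM. NANOG (48.6 ± 7.99 FPKM), SOX2 (43.0 ± 4.26 FPKM) and SALL4 (37.4 ± 3.07 FPKM) came next, and each overlapped its neighbour in this order. PRDM14 averaged 20.6 ± 1.57 and DPPA2 4.85 ± 0.262 FPKM. KLF4, a reprogramming factor that in human cells belongs to the naive rather than the primed pluripotent state, was the lowest at 0.352 ± 0.108 FPKM. Apart from the NANOG, SOX2 and SALL4 overlaps, the 3 H1 libraries of each gene lay apart from those of the next gene in the order.

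**Figure D1:**
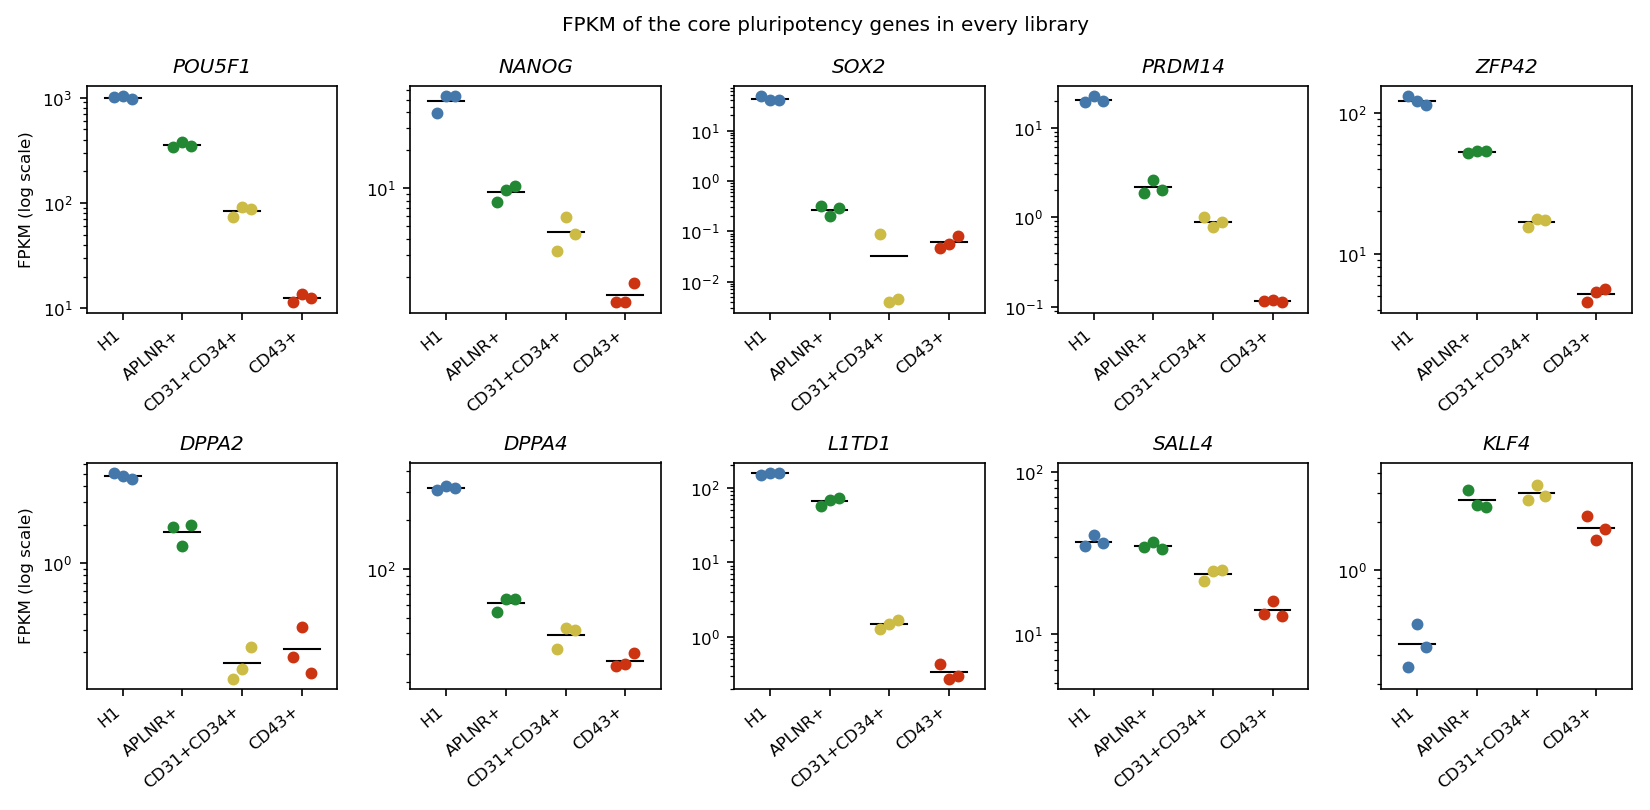
FPKM of the 10 core pluripotency genes in each of the 12 libraries, on log axes that differ between panels, with the 4 populations from left to right and replicates 1 to 3 from left to right within each. Points are libraries and black lines are means of 3; SALL4 is the gene whose APLNR+ points (33.6 to 37.0 FPKM) overlap those of H1 (35.0 to 40.9 FPKM), KLF4 is the gene that lies higher after H1, and the single high CD31+CD34+ point of SOX2 is replicate 1.

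The core transcription factors left H1 levels at different speeds. POU5F1, which encodes OCT4, measured 1009, 1028 and 967 FPKM in H1 replicates 1, 2 and 3, then 338, 377 and 346 FPKM in APLNR+ cells. It measured 73.9, 92.2 and 86.9 FPKM in CD31+CD34+ cells and 11.4, 13.6 and 12.4 FPKM in CD43+ cells. The libraries of each population lay wholly below those of the one before. The log2 change of FPKM + 1 was -1.50 ± 0.10 (SE) from H1 to APLNR+ cells (limma adjusted p 9.15e-08), -2.06 ± 0.10 to CD31+CD34+ cells (adjusted p 4.36e-09) and -2.66 ± 0.10 to CD43+ cells (adjusted p 1.05e-09). POU5F1 was thus still at 354 ± 20.8 FPKM in mesoderm, 35.3% of its H1 mean, and at 12.5 ± 1.10 FPKM in HPCs, 1.25% of it.

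SOX2, the partner of OCT4 and a factor that neural precursors retain, was lost almost entirely by day 2. Its H1 libraries held 47.9, 40.3 and 40.9 FPKM and its APLNR+ libraries 0.319, 0.197 and 0.289 FPKM, a log2 change of -5.11 ± 0.09 (limma adjusted p 1.90e-12). Its mean in APLNR+ cells was 0.624% of the H1 mean. CD31+CD34+ replicates 1, 2 and 3 gave 0.0898, 0.00388 and 0.00443 FPKM, and CD43+ libraries 0.0465, 0.0569 and 0.0792 FPKM. The higher CD31+CD34+ value came from replicate 1, the shallowest of all 12 libraries, and without it the share of the H1 mean left in CD31+CD34+ cells went from 0.0760% to 0.00966%. SOX2 also lies within SOX2-OT, a non-coding gene on the same strand that averaged 0.804 FPKM in H1 and 0.257, 0.151 and 0.152 FPKM in the later populations, so reads at this level may have been split between the genes and differences of SOX2 after day 2 are uncertain. Of 5 neural marker genes, PAX6, SOX1, HES5 and NEUROG2 stayed under 1 FPKM in all libraries, while TUBB3 was between 11.9 and 136 FPKM.

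NANOG, a homeodomain factor of the same circuit, measured 39.4, 53.3 and 53.2 FPKM in undifferentiated cells and 7.79, 9.66 and 10.5 FPKM on day 2. Later libraries gave 3.21, 5.97 and 4.34 FPKM in CD31+CD34+ cells and 1.26, 1.26 and 1.80 FPKM in CD43+ cells. No library overlapped the population before. The change was -2.26 ± 0.19 to APLNR+ cells (limma adjusted p 7.38e-07), -0.93 ± 0.19 to CD31+CD34+ cells (adjusted p 0.000738, under the 2-fold minimum used for a call) and -1.15 ± 0.19 to CD43+ cells (adjusted p 0.000261). Copies of NANOG, taken by symbol, may limit its low values, but reads shared between them and NANOG were not measured. There were 10 copies, 5 of them above 0. Their summed FPKM was 18.2% of that of NANOG in H1, 19.3% on day 2, 30.4% on day 5 and 76.7% on day 8. In H1 these copies were mainly NANOGP8 (5.75 FPKM) and NANOGP1 (2.51 FPKM), which averaged 0.758 and 0.397 FPKM on day 2. In CD43+ cells they were mainly NANOGP5 (0.556 FPKM) and NANOGP4 (0.350 FPKM). NANOGP5 averaged 0.226 FPKM in H1, and NANOGP8 was at 0.139 FPKM in CD43+ cells. For POU5F1 the 7 copies summed to 0.363% of the gene in H1 and 7.45% in CD43+ cells.

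The regulators around the circuit behaved less alike. PRDM14, a PR-domain repressor that in human stem cells activates POU5F1, measured 19.4, 22.4 and 20.0 FPKM in H1, 1.86, 2.58 and 2.01 in APLNR+, 0.999, 0.781 and 0.885 in CD31+CD34+ and 0.115, 0.118 and 0.112 FPKM in CD43+ cells. Its populations did not overlap. The fall to APLNR+ cells was called (log2 change -2.78 ± 0.10, limma adjusted p 5.15e-10), and the steps after it, -0.73 and -0.76 on the log2(FPKM + 1) scale, were under 2-fold on that scale, which compresses values below 1 FPKM. As a share of the H1 mean, PRDM14 went from 10.5% in APLNR+ to 4.32% in CD31+CD34+ and 0.559% in CD43+ cells.

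SALL4, a zinc finger factor that is shared by stem cells, germ cells and fetal progenitors, was the slowest to fall. Its H1 libraries held 35.0, 40.9 and 36.4 FPKM and its APLNR+ libraries 34.5, 37.0 and 33.6 FPKM, which overlapped (log2 change -0.09 ± 0.10, limma adjusted p 0.473). The sign of that small difference turned with upper-quartile, quantile and median-ratio scaling. CD31+CD34+ libraries held 21.3, 24.7 and 24.9 FPKM and CD43+ libraries 13.4, 16.1 and 13.0 FPKM, both wholly below H1. The change from H1 was -0.64 ± 0.10 to CD31+CD34+ cells (adjusted p 0.000108, under 2-fold) and -1.34 ± 0.10 to CD43+ cells (adjusted p 1.53e-07), where 37.9% of the H1 mean was left.

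ZFP42, also known as REX1, a zinc finger gene used as a marker of undifferentiated cells, fell at each of the 3 steps. Its libraries held 131, 121 and 114 FPKM in H1, 51.6, 53.8 and 53.4 in APLNR+, 15.4, 17.5 and 17.4 in CD31+CD34+ and 4.53, 5.38 and 5.66 FPKM in CD43+ cells, without overlap. All 3 steps were called, at -1.19 ± 0.09, -1.60 ± 0.09 and -1.53 ± 0.09 (limma adjusted p 4.98e-07, 2.39e-08 and 6.49e-08), although the first was -0.96 with quantile normalization.

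KLF4 moved the other way. Its libraries held 0.254, 0.468 and 0.335 FPKM in H1, 3.12, 2.54 and 2.46 in APLNR+, 2.74, 3.38 and 2.89 in CD31+CD34+ and 2.18, 1.53 and 1.81 FPKM in CD43+ cells. Every later library lay above every H1 library, and those of CD43+ cells lay below those of APLNR+ and CD31+CD34+ cells. The first step was a rise of 1.45 ± 0.12 (limma adjusted p 5.22e-07). Against H1, CD43+ cells were higher by 1.07 ± 0.12 (adjusted p 3.53e-06), a value that went to 0.98 without CD43+ replicate 1 and to 0.93 with replicates 2 and 3 alone, under the 2-fold minimum. KLF4 is also expressed in endothelial and monocytic cells. Endothelial markers (CDH5, TEK, KDR, ESAM, PLVAP) summed to between 27.3 and 33.4 FPKM in H1, 50.8 and 68.1 in APLNR+, 560 and 792 in CD31+CD34+ and 237 and 314 FPKM in CD43+ cells, while 3 of 5 myeloid markers reached 1 FPKM in all CD43+ libraries (LYZ, SPI1 and CSF1R) and MPO and CD14 stayed near 0. At the first step KDR was the only endothelial marker called raised, its mean going from 24.1 to 57.3 FPKM. TEK went down, from 6.75 to 4.14 FPKM, while CDH5, ESAM and PLVAP were under 1 FPKM before and after. The higher endothelial sum of APLNR+ cells was thus that of KDR alone. The part of endothelial or monocytic cells in the KLF4 level was not tested.

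The pair of chromatin factors did not fall together. DPPA2 and DPPA4 are neighbouring genes on chromosome 3 whose products, SAP-domain proteins, bind each other and prime developmental promoters. DPPA4 measured 307, 325 and 317 FPKM in H1, 53.9, 65.2 and 64.9 in APLNR+, 32.2, 43.0 and 41.8 in CD31+CD34+ and 25.3, 25.9 and 30.3 FPKM in CD43+ cells, each population below the one before. DPPA2 measured 5.11, 4.85 and 4.58 FPKM in H1, 1.92, 1.36 and 2.00 in APLNR+, 0.124, 0.147 and 0.220 in CD31+CD34+ and 0.184, 0.314 and 0.138 FPKM in CD43+ cells, and the last pair of populations overlapped. DPPA4 lost most by day 2 (-2.35 ± 0.12, limma adjusted p 1.01e-08), with 19.4% of the H1 mean left, and little after it, so that 8.59% was left in CD43+ cells. DPPA2 had 36.3% left on day 2 (-1.09 ± 0.11, adjusted p 2.91e-06, and -0.98 without APLNR+ replicate 2) and 3.38% on day 5 (-1.24 ± 0.11 from APLNR+ cells, adjusted p 5.61e-07). The FPKM ratio of DPPA4 to DPPA2 within a library was between 60.0 and 69.1 in H1, 28.1 and 47.9 in APLNR+, 190 and 292 in CD31+CD34+ and 82.7 and 220 in CD43+ cells.

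L1TD1, an RNA-binding protein gene derived from a LINE-1 element and bound by the core factors, fell at the first step and by far more at the second. H1 libraries held 149, 157 and 158 FPKM, and APLNR+ libraries 56.9, 67.9 and 73.7 FPKM (-1.22 ± 0.11, limma adjusted p 1.38e-06). CD31+CD34+ libraries held 1.25, 1.50 and 1.71 FPKM, a change of -4.75 ± 0.11 (adjusted p 1.39e-11), and CD43+ libraries 0.432, 0.274 and 0.303 FPKM. No populations overlapped. The share of the H1 mean left went from 42.7% in APLNR+ to 0.960% in CD31+CD34+ and 0.217% in CD43+ cells. Within libraries the ratio of L1TD1 to ZFP42 was 1.28 ± 0.127 in H1 and 1.25 ± 0.139 in APLNR+ cells, which overlapped, and 0.0883 ± 0.00856 in CD31+CD34+ cells.

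Counted over the 10 genes, 8 were called lowered and 1 raised from H1 to APLNR+ cells, where 7.62% of the 14840 genes tested were lowered and 8.3% raised. From APLNR+ to CD31+CD34+ cells 4 were lowered (POU5F1, ZFP42, DPPA2 and L1TD1; background 17.1%) and 0 raised (background 12.5%). From CD31+CD34+ to CD43+ cells 3 were lowered (POU5F1, NANOG and ZFP42; background 8.79%) and 0 raised (background 5.58%). Calls required both an adjusted p under 0.05 in limma and a 2-fold or larger change of FPKM + 1. With a pseudocount of 0.1 in place of 1, the counts at the later steps were 7 (background 24.1%) and 5 (background 14.7%), with NANOG, SOX2 and PRDM14 added on day 5 and PRDM14 and L1TD1 on day 8. Over the whole course, 8 members were lowered and 1 raised from H1 to CD31+CD34+ cells (background 23.2% and 16.9%), and 9 lowered and 1 raised from H1 to CD43+ cells (background 22.5% and 14.6%). The comparisons from H1 share their H1 libraries. The median log2 change of the 10 genes was -1.36, -0.83 and -0.73 at the 3 steps, beside -0.12, -0.01 and -0.0049 over all genes tested, and -4.29 from H1 to CD43+ cells beside -0.10. All 10 passed the filter on low values, SOX2 through its 3 H1 libraries and PRDM14 and DPPA2 through 6 libraries each. L1TD1 and KLF4 passed through 9 libraries each, L1TD1 through none of CD43+ cells and KLF4 through none of H1. The filter itself thus favoured a difference for these genes, including the rise of KLF4. In bulk RNA, fewer cells that express a gene and less RNA per cell cannot be told apart. With replicates 2 and 3 alone, which leaves out the shallowest library of each population, 13581 genes were tested. Of the members 7, 4 and 4 were lowered at the 3 steps, beside 836, 2448 and 1262 of all genes tested. SOX2 did not enter that fit, since only its H1 libraries reach 1 FPKM.

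**Figure D2:**
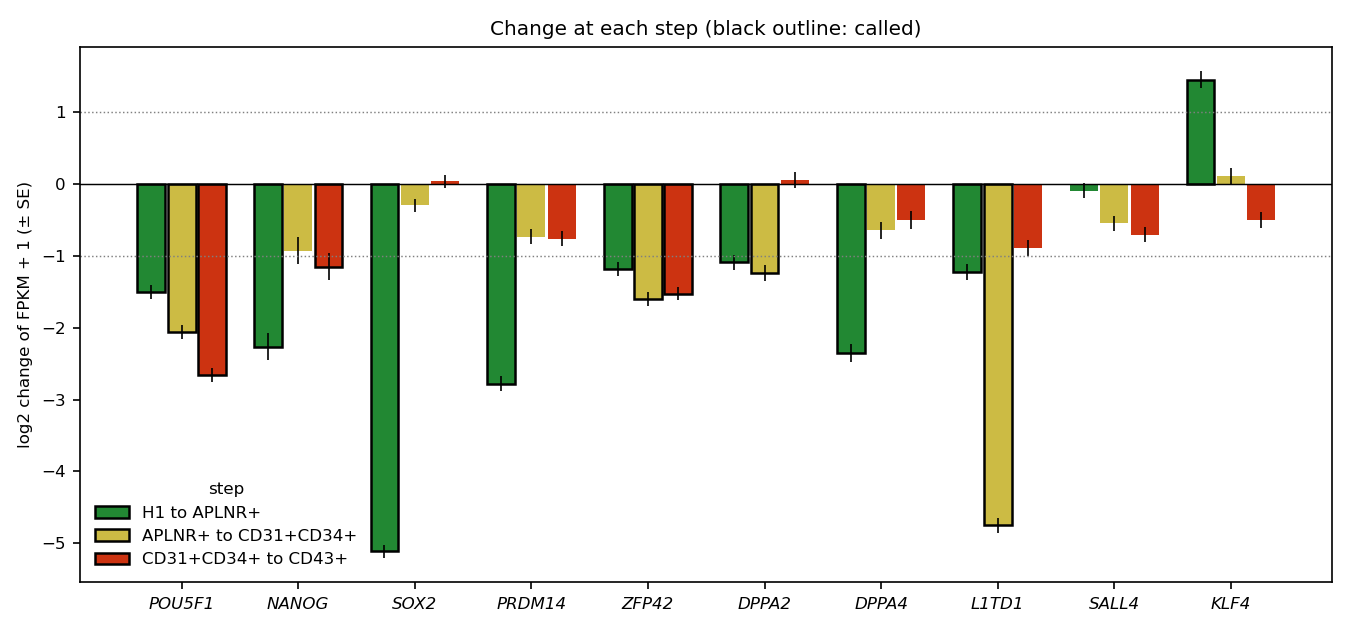
Log2 change of FPKM + 1 for each gene at the 3 consecutive steps (bars, ± SE from limma), with a black outline where the change was called and dotted lines at 2-fold. SOX2 has its largest bar at the first step (-5.11) and L1TD1 at the second (-4.75), and POU5F1 at the third (-2.66).

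The order of loss was read from the share of the H1 mean left. In APLNR+ cells the order from least to most left was SOX2 (0.624%), PRDM14 (10.5%), NANOG (19.2%), DPPA4 (19.4%), POU5F1 (35.3%), DPPA2 (36.3%), L1TD1 (42.7%), ZFP42 (43.4%), SALL4 (93.5%) and KLF4 (768%). NANOG and DPPA4 overlapped in their libraries, as did each neighbouring pair from POU5F1 through DPPA2 and L1TD1 to ZFP42, so the libraries set apart 6 groups of genes. In CD31+CD34+ cells the order was SOX2 (0.0760%), L1TD1 (0.960%), DPPA2 (3.38%), PRDM14 (4.32%), POU5F1 (8.42%), NANOG (9.27%), DPPA4 (12.3%), ZFP42 (13.8%), SALL4 (63.2%) and KLF4 (852%), with overlaps between DPPA2 and PRDM14 and along the chain from POU5F1 to ZFP42. In CD43+ cells it was SOX2 (0.141%), L1TD1 (0.217%), PRDM14 (0.559%), POU5F1 (1.25%), NANOG (2.96%), ZFP42 (4.26%), DPPA2 (4.37%), DPPA4 (8.59%), SALL4 (37.9%) and KLF4 (521%), with overlaps between SOX2 and L1TD1 and between ZFP42 and DPPA2, while NANOG (at most 3.71%) and ZFP42 (at least 3.72%) lay narrowly apart. L1TD1 moved from the seventh place to the second between days 2 and 5, and DPPA4 from the fourth place on day 2 to the eighth on day 8. Of the 27 neighbouring pairs, 17 did not overlap in the share left. Because the pairs came from an order set by these same libraries, a test of them largely restates that order and is not separate support. Each pair was tested by the ratio of its genes within a library, set against the same ratio in H1. In 16 of the 17 pairs, all but NANOG and ZFP42 in CD43+ cells, this ratio did not overlap that in H1 and gave the smallest p that an exact two-sided permutation of 3 against 3 libraries can reach (0.1, or 0.169 after Benjamini-Hochberg adjustment over the 27), so no single pair can pass 0.05. SOX2 was the least and SALL4 the most retained of the 9 falling genes in all 9 differentiated libraries.

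**Figure D3:**
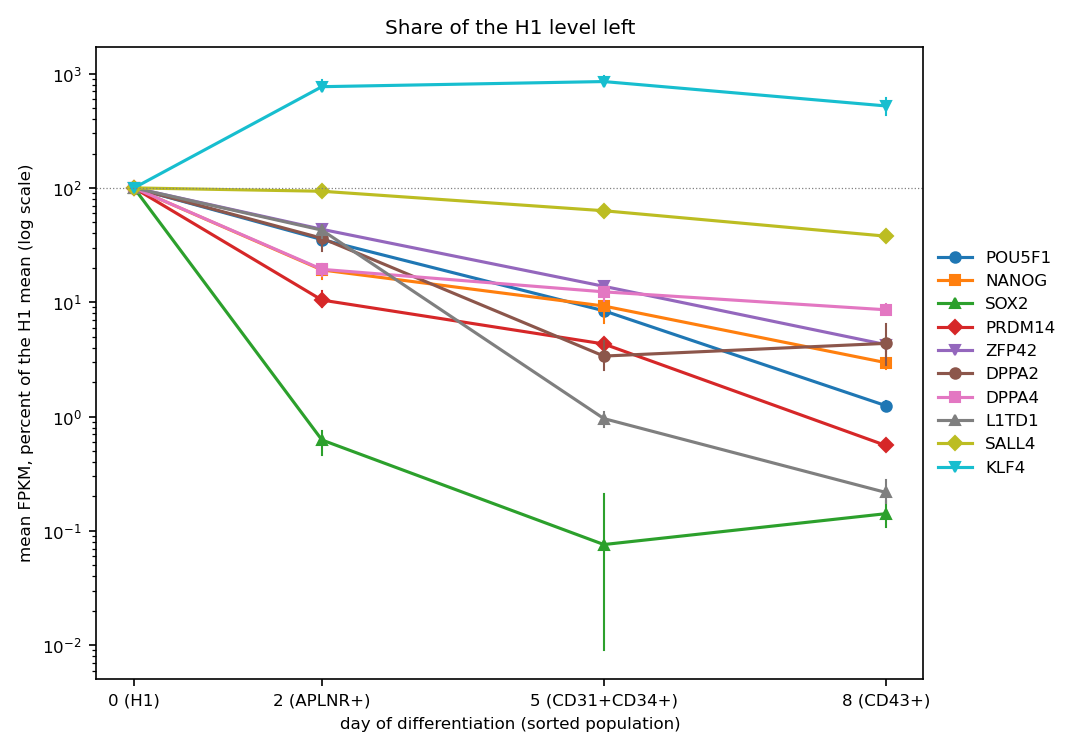
Mean FPKM of each gene as a percent of its H1 mean, on a log axis, against the day of the sorted population; vertical lines run from the lowest to the highest of 3 libraries. SOX2 drops to 0.624% by day 2 while L1TD1 stands at 42.7% and then crosses most other genes to reach 0.960% by day 5; SALL4 stays at 93.5% on day 2 and KLF4 lies above 100% throughout.

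The speed of loss, taken as the change of log2 FPKM per day without a pseudocount, differed between genes and between steps. ZFP42 fell at nearly steady rates of -0.60, -0.55 and -0.57 per day at the 3 steps (SE from 0.02 to 0.04). POU5F1 fell at -0.75 ± 0.03, -0.69 ± 0.04 and -0.92 ± 0.04 per day, fastest at the last step. NANOG and DPPA4 began at almost the same rate, -1.19 ± 0.10 and -1.19 ± 0.05 per day, and then slowed to -0.36 and -0.22 and to -0.54 and -0.17 per day. SOX2 had the steepest first step of the 10, at -3.67 ± 0.11 per day, and L1TD1 went from -0.62 ± 0.06 to -1.83 ± 0.06 per day at the second. At that second step SOX2 fell by a further 1.50 ± 0.50 per day, or by 2.00 ± 0.08 per day without CD31+CD34+ replicate 1, so SOX2 and L1TD1 cannot be put in order there. PRDM14 went from -1.63 ± 0.08 to -0.42 ± 0.06 and then to -0.98 ± 0.03 per day. The rates of SALL4 were -0.05 ± 0.04, -0.19 ± 0.03 and -0.25 ± 0.04 per day. The first of these was the slowest first-step rate of the falling genes. At the later steps DPPA4 was about as slow, at -0.22 ± 0.05 and -0.17 ± 0.05 per day. SOX2 and DPPA2 did not fall at the third step, where their libraries overlapped. These rates take H1 as day 0 and compare sorted populations, so they do not follow the same cells over time.

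Whether a gene changed more before or after the mesoderm stage was tested as the change from H1 to APLNR+ cells minus the change from APLNR+ to CD43+ cells, in the same limma fit and on the log2(FPKM + 1) scale. The spans compared are unequal, day 0 to day 2 against day 2 to day 8, so a larger later fall need not be a faster one. ZFP42, for example, fell at -0.60, -0.55 and -0.57 log2 FPKM per day at the 3 steps. The difference of early and late change was below 0 in 35% of all genes at an adjusted p under 0.05. It was above 0 in 29.5%, so a difference of either sign was common. Of the 10 genes, 3 fell more before than after: SOX2 (-4.86 ± 0.16, adjusted p 1.64e-10), PRDM14 (-1.29 ± 0.18, adjusted p 5.20e-05) and DPPA4 (-1.21 ± 0.21, adjusted p 0.000316). POU5F1 (3.22 ± 0.17), L1TD1 (4.42 ± 0.19), ZFP42 (1.94 ± 0.16) and SALL4 (1.16 ± 0.18) fell more after the mesoderm stage, with adjusted p from 1.50e-09 to 0.000128. KLF4, which rose and then fell, had a difference of 1.84. NANOG (-0.18 ± 0.32, adjusted p 0.640) and DPPA2 (0.09 ± 0.18, adjusted p 0.679) were not called. The scale matters for the genes that ended below 1 FPKM: with a pseudocount of 0.1, PRDM14 gave 0.16 (adjusted p 0.619) and DPPA2 1.17 (adjusted p 0.0277).

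Ratios within a library, which do not depend on scaling between libraries, showed how the balance of the factors shifted. OCT4 and SOX2 act as partners, and the FPKM ratio of POU5F1 to SOX2 was between 21.0 and 25.5 in H1 and between 1058 and 1915 in APLNR+ cells. It was 823, 23751 and 19627 in CD31+CD34+ replicates 1, 2 and 3 and between 157 and 245 in CD43+ cells, below the APLNR+ range and above that of H1, with SOX2 under 0.1 FPKM in these 6 libraries. POU5F1 over NANOG ran from 18.2 to 25.6 in H1, from 32.9 to 43.4 on day 2, from 15.4 to 23.0 on day 5 and from 6.90 to 10.8 on day 8, so the APLNR+ libraries lay above all others. POU5F1 over SALL4 went down at each step without overlap, from 26.9 ± 1.86 through 10.1 ± 0.274 and 3.56 ± 0.151 to 0.885 ± 0.0649. By day 8 DPPA4 (27.2 ± 2.72 FPKM) was the most abundant of the 10 genes, followed by SALL4 (14.2 ± 1.71 FPKM) and POU5F1 (12.5 ± 1.10 FPKM), which overlapped. DPPA4 over POU5F1, 0.316 ± 0.0117 in H1 and 0.173 ± 0.0139 in APLNR+ cells, was 2.18 ± 0.266 in CD43+ cells.

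The remaining genes of the pluripotent state were taken from a list of 26 other pluripotency-associated genes, of which 25 passed the filter. From H1 to APLNR+ cells 12 of the 25 were lowered and 4 raised (background 7.62% and 8.3%), and from APLNR+ to CD31+CD34+ cells 15 were lowered and 0 raised (17.1% and 12.5%). From CD31+CD34+ to CD43+ cells 7 were lowered and 0 raised (8.79% and 5.58%), and from H1 to CD43+ cells 25 and 0 (22.5% and 14.6%). FOXD3 and SOX3 reached 1 FPKM only in H1 libraries, so the filter itself favoured a fall from H1 for them. The median log2 change of the 25 genes was -0.71, -1.35 and -0.63 at the 3 steps. The largest early falls were those of VSNL1, a calcium sensor gene (67.8 ± 8.58 to 0.741 ± 0.504 FPKM, log2 change -5.33), USP44, a deubiquitinase of histone H2B (91.0 ± 4.25 to 2.15 ± 0.367 FPKM, -4.87) and the non-coding LINC00678 (200.1 ± 4.13 to 24.0 ± 1.39 FPKM, -3.01). The largest early rises were those of LEFTY2 (1.61 ± 0.0410 to 8.89 ± 0.406 FPKM, 1.92), CUZD1 (1.74 ± 0.115 to 5.99 ± 1.23 FPKM, 1.33) and LEFTY1 (5.62 ± 0.626 to 15.2 ± 0.820 FPKM, 1.30). LEFTY1 and LEFTY2 encode secreted inhibitors of NODAL and are targets of activin and NODAL signalling. Both were lower in CD43+ cells than in H1. Over the whole course TDGF1, the NODAL co-receptor also called CRIPTO, fell the furthest of the list, from 234 ± 15.7 FPKM in H1 through 180 ± 3.89 and 11.9 ± 0.787 to 0.333 ± 0.192 FPKM in CD43+ cells (-7.47), followed by LINC00678 (-7.41) and USP44 (-6.05). The difference of early and late change was 6.72 for TDGF1, the same sign as for L1TD1, and -3.69 for USP44 and -4.81 for VSNL1, the same sign as for SOX2.

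**Figure D4:**
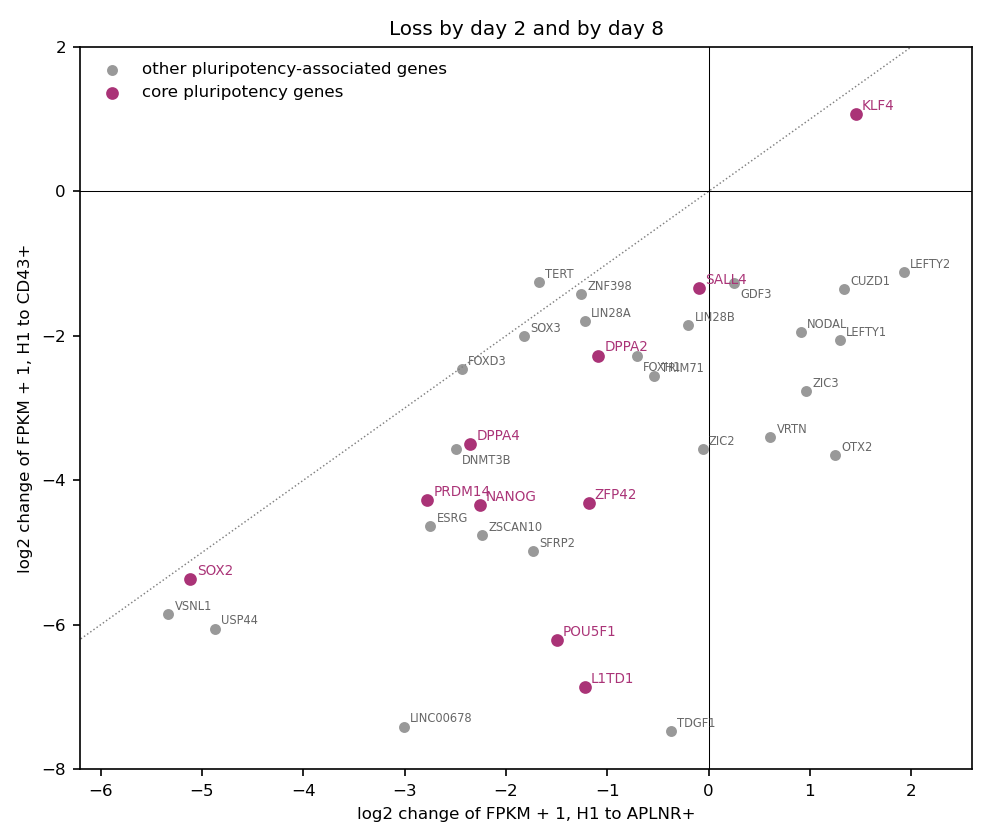
Log2 change of FPKM + 1 from H1 to APLNR+ cells (horizontal) and from H1 to CD43+ cells (vertical) for the 10 core pluripotency genes (purple) and 25 other pluripotency-associated genes (grey); points on the dotted line changed as much by day 2 as by day 8. Both axes share the H1 libraries; SOX2 (-5.11, -5.37) lies near the line with VSNL1, USP44 and FOXD3, whereas L1TD1 (-1.22, -6.87) and POU5F1 (-1.50, -6.22) lie far below it.

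KLF4 was further set beside genes of the naive state and the other members beside their relatives. Of 13 naive-state genes, 6 passed the filter and summed FPKM over the list was between 7.42 and 9.20 in H1. TBX3, a T-box factor also used in mesoderm, rose from 0.109 ± 0.131 in H1 to 20.4 ± 0.402 FPKM in APLNR+ cells (log2 change 4.28) and KLF5 from 0.204 ± 0.117 to 5.49 ± 2.04 FPKM (2.38), while NR5A2 fell (2.64 ± 0.581 to 0.144 ± 0.0704 FPKM, -1.66). DPPA5 measured 1.62, 2.25 and 2.69 FPKM in H1 and was listed at 0 in the 9 other libraries. KLF17, a marker of naive cells, stayed under 0.1 FPKM in all 12. Of 20 family relatives, 15 passed, and 4 were lowered and 4 raised from H1 to APLNR+ cells, beside 7.62% and 8.3% of all genes. DPPA5, NR5A2, SOX3 and POU3F1 reached 1 FPKM only in H1 libraries and KLF5 only in APLNR+ libraries. TBX3 and PRDM1 reached it in every population but H1. The filter itself therefore favoured a difference for these genes. Among the relatives KLF6 rose from 2.01 ± 0.436 to 27.4 ± 2.04 FPKM (3.24) and PRDM1 from 0.0784 ± 0.0693 to 5.19 ± 0.593 FPKM (2.52), while SALL2 fell from 55.2 ± 11.9 to 7.64 ± 0.952 FPKM (-2.68), SOX3 from 3.09 ± 0.0999 to 0.159 ± 0.0189 FPKM (-1.82) and POU3F1 from 2.67 ± 0.433 to 0.120 ± 0.0599 FPKM (-1.71). SALL1 was at 6.53 ± 0.898 in H1, 21.7 ± 1.09 in APLNR+ and 2.51 ± 0.490 FPKM in CD43+ cells. Of 8 reference genes used by all cells, 0 were called from H1 to APLNR+ cells and 1 from H1 to CD43+ cells (YWHAZ, -1.26).

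Germ cells also express POU5F1, NANOG, PRDM14, SALL4 and TFAP2C, and some of their markers differed between the populations. Of 7 primordial germ cell markers, 4 reached 1 FPKM in all APLNR+ libraries and 0 in H1, and the list summed to between 1.51 and 2.29 FPKM in H1, 39.0 and 46.0 in APLNR+, 65.7 and 76.4 in CD31+CD34+ and 11.8 and 16.6 FPKM in CD43+ cells. NANOS3 averaged 0.257, 14.2, 35.4 and 10.1 FPKM in the 4 populations, TFAP2C 0.558, 4.79, 3.34 and 0.684, SOX17, which endothelium and endoderm also express, 0.0624, 17.5, 24.2 and 1.40, and PRDM1 0.0784, 5.19, 6.24 and 1.76 FPKM. The other 3 markers had their highest mean in H1: DND1 averaged 0.443, 0.351, 0.218 and 0.333 FPKM in the 4 populations, and DDX4 and DAZL, markers of later germ cells, averaged 0.116 and 0.302 FPKM in H1, were between 0 and 0.0472 FPKM in APLNR+ cells and were at 0 in the CD31+CD34+ and CD43+ libraries. Of the endoderm markers reported here, SOX17 and, in CD31+CD34+ cells, HNF4A (1.25 FPKM) passed 1 FPKM, while FOXA2 and FOXA1 stayed below it. Of 6 trophoblast markers, GATA3 and TFAP2A reached 1 FPKM in all APLNR+ libraries, at 2.70 and 1.47 FPKM. CDX2 averaged 0.0392 FPKM in H1 and was highest in CD31+CD34+ cells at 2.36 FPKM, KRT7 went from 5.84 FPKM in H1 to 0.976 FPKM in APLNR+ cells, and CGA and CGB5 were at or near 0. The trophoblast list summed to between 5.65 and 6.31 FPKM in H1, 5.10 and 6.75 in APLNR+, 6.52 and 8.43 in CD31+CD34+ and 2.05 and 4.03 FPKM in CD43+ cells. Whether such cells contributed to the levels of POU5F1, NANOG, PRDM14 or SALL4 left after day 2 was not tested.

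The genes most like each member were named by Pearson's r of log2(FPKM + 1) over the 12 libraries, which share populations and depth, so r is a description. Among the members, POU5F1 and ZFP42 had r = 0.996 and PRDM14 and DPPA4 r = 0.994, whereas SOX2 and SALL4 had r = 0.577, and KLF4 was negative with all others (from -0.937 with SOX2 to -0.328 with SALL4). POU5F1 was most like AIF1L (r = 0.997), SLC7A3 and DRAXIN, and ZFP42 most like AIF1L, POU5F1 and SLC39A14. The genes nearest to NANOG were DLGAP1-AS2, GRHL2 and KDF1 (r from 0.993 to 0.995), of which GRHL2 encodes an epithelial transcription factor and went from 13.4 FPKM in H1 to 3.44 on day 2 and 0.854 FPKM on day 8. For SOX2 they were AC007218.1, AF064860.2 and AC016044.1 (r = 0.999), transcripts at 10.4, 1.04 and 6.34 FPKM in H1 and at most 0.133 FPKM in the later means. PRDM14 was nearest to FAM124A, MAMDC2 and RBM47, DPPA4 to MAL2, LPAR3 and SEPHS1, and DPPA2 to ZNF670 and AL117378.1. For L1TD1 they were CEBPG, MAPK6 and DSE (r from 0.997 to 0.999), and for SALL4 MID1, S1PR2 and DMKN (r from 0.988 to 0.993). KLF4 was most like TNRC18 (r = 0.989), NBPF8 and TBX3 (r = 0.981).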

How the data were processed

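RNA-seq was measured in 12 libraries of 4 populations, grouped by their titles. Per the labels, Trizol was used to harvest RNA and an Illumina TruSeq kit to build the libraries. The FPKM values that the authors deposited fill 1 column for each library. The submitters' processing notes name hg19, BWA, Bowtie and RSEM, without roles or versions in the sources used here. Of 58366 lines below the header, 1 held text and was left out, and where a symbol recurred its line of highest mean stood for it. FPKM are not counts, so no count model was run.

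Values were transformed as log2(FPKM + 1), and genes at 1 FPKM or more in at least 3 libraries were kept (14840). A limma model (version 3.58.1, R 4.3.3) without covariates covered all 4 populations (lmFit, contrasts.fit, eBayes with trend), and p-values were adjusted by Benjamini-Hochberg over all genes tested. Calls of a change needed an adjusted p under 0.05 and 2-fold or more, and calls of a difference between early and late change the adjusted p alone. The fit was tested on simulated data. The labels do not say what shared replicate numbers mean. Deviations of same-numbered libraries from their population means correlated at -0.02 to 0.43, all over 0.1 for H1 with CD43+ cells (0.17 to 0.39) and for CD31+CD34+ with CD43+ cells (0.19 to 0.39) and not all over 0.1 in the other 4 pairs of populations. The main fit has no block. Neighbours in the order of loss were compared by exact two-sided permutation of log2 ratios. Each member, its copies by symbol, the 3 genes most like it, and from each list the 3 largest called rises and falls from H1 to APLNR+ and to CD43+ cells were eligible to be named; HNF4A, GATA3, TFAP2A, CDX2 and other list genes with values outside that rule were named as markers of a cell type, and FOXD3, KLF17, SALL1 and the genes holding the paired element after their values were seen. Some genes eligible under the rule are not reported here. The 10 members and the lists, written from general knowledge, were chosen with earlier results of these data known. Alternatives are given under the dependence on processing. Overlaps between genes came from GENCODE release 29 and promoter windows from RefSeq, and either may differ from the annotation behind the table, which is not given in the sources used here; counting is not stated to use strand. The rest used Python 3.11.15, with scipy 1.17.1 for permutations, pandas 2.3.3 and numpy 2.4.6 for tables and matplotlib 3.10.9 for figures. With 3 libraries in each population, precision is limited throughout.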

Additional observations from a re-analysis of the deposited data

How the results depend on the processing

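The members were refitted with a smaller pseudocount (0.1), without a filter, with a filter at a mean of 5 FPKM, after upper-quartile, quantile or median-ratio scaling, over only the populations compared, with no trend in eBayes, with the lines of a symbol summed, with the replicate block and with each library left out. Replicates 2 and 3 alone and a fit without genes of small RNAs were chosen after seeing the data. Of the members' log2 changes under these settings, 1153 kept their direction and side of the threshold, 8 passed it newly, 5 no longer passed and 4 turned sign. For early against late change these were 228, 1, 0 and 5. Many of these were fixed by the setting. The filters, eBayes without trend, the replicate block, summed lines, compared populations alone and the fit without small RNAs cannot move a member's log2 change. Nor can leaving out a library of a population not compared. Only the adjusted p could differ there, so 1153 and 228 do not measure stability. With a pseudocount of 0.1, members lowered were 7 from APLNR+ to CD31+CD34+ cells (24.1% of all genes) and 5 from CD31+CD34+ to CD43+ cells (14.7%). With the filter at a mean of 5 FPKM, 0 members were raised from H1 in each comparison, since KLF4 was not tested. Leaving out each library gave 7 to 8, 4 to 5 and 2 to 3 members lowered at the 3 steps, 7 to 8 and 8 to 9 from H1 to CD31+CD34+ and CD43+ cells, and 0 to 1 raised from H1 to CD43+ cells. Of all genes (14366 to 14692 tested), 888 to 1186, 2287 to 2606 and 1183 to 1405 were then lowered at the 3 steps. From H1 to CD31+CD34+ and CD43+ cells 3081 to 3522 and 2974 to 3463 were lowered, and 1822 to 2208 were raised from H1 to CD43+ cells. SOX2 was not tested where an H1 library was left out, which lowers the counts of members from H1 by 1. The 0 members raised came without CD43+ replicate 1, and replicates 2 and 3 alone also gave 0. NANOG was the member gained or lost at the later steps when a library was left out: it fell by 1.04 from APLNR+ cells without APLNR+ replicate 1 and by 1.11 without CD31+CD34+ replicate 2, and its last step was -0.97 without the latter.

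In the order of share left, 4 to 10 members kept their place in APLNR+ cells and 8 to 10 in CD31+CD34+ and in CD43+ cells when a library was left out, and ordering by the difference of log2(FPKM + 1) kept 5, 3 and 2 places, as it weighs the level as well as the share. Signs turned, for values near 0 apart from PRDM14, in these results: SALL4 from H1 to APLNR+ cells (0.0072 with upper-quartile, 0.088 with quantile and 0.0024 with median-ratio scaling), DPPA2 from CD31+CD34+ to CD43+ cells (-0.0033 without CD43+ replicate 2, and from there to 0.10 when other libraries were left out), and early against late change of NANOG (0.25 with a pseudocount of 0.1, 0.040 without APLNR+ replicate 1, with -0.35 the lowest when a library was left out), PRDM14 (0.16 with a pseudocount of 0.1) and DPPA2 (-0.024 with quantile normalization, -0.036 without APLNR+ replicate 3, with 0.31 the highest when a library was left out). Apart from the pseudocount and the filter, whose construction moves low values, the cause was not tested. Quantile normalization and median-ratio scaling each moved the median change of all genes from H1 to CD43+ cells by 0.12. Deviations of a library matched best those of its own replicate number in 23 of 36 comparisons. With the replicate block, 8, 4 and 3 members were lowered at the 3 steps, beside 1133, 2543 and 1306 of 14840 genes, and no member's call changed. Every population holds the same replicate numbers, so the block cannot move a log2 change and only the adjusted p could differ. The unchanged calls therefore do not show whether the numbers pair libraries. FPKM without depth leaves the precision of values under 1 FPKM unknown.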
